A study of Mus musculus with 6 samples.

Results

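Psap, Hexa, Neu1, Glb1, Gla, Asah1, Gusb and Gaa encode a saposin precursor and 7 hydrolases with which lysosomes take apart glycolipids, glycosaminoglycans and glycogen. They were picked by gene symbol, with earlier results of these data known. Each of the 8 has a row in the deposited table of 24421 gene symbols. All 8 were also among the 11559 genes tested, those with at least 1 FPKM (fragments scaled to the length of the gene and the reads of the library) in at least 3 of the 6 libraries. The RNA came from primary mouse proximal tubular epithelial cells of the kidney, and all 6 samples had been given 20 µM erastin2 for 24 h. Erastin2, an analogue of erastin, blocks the import of cystine by system xc- and can lead to ferroptosis. The 3 libraries labelled Atg5KO were compared with 3 labelled Atg5F/F, which carry floxed Atg5, a gene needed to conjugate LC3 to autophagosomal membranes. Neither an untreated group nor the way the deletion was made is described in the labels, so differences present before erastin2 and responses to erastin2 cannot be told apart. The labels name no animal or culture for a replicate, so the p-values measure the spread between these libraries, which may be technical.

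Lysosomal breakdown of glycosphingolipids runs in sequence. Exoglycosidases take sugars off the end of the chain until ceramide is left, and acid ceramidase splits that into sphingosine and a fatty acid. Several of these enzymes reach their membrane-bound substrate only with a small activator protein, and the saposins, cut from prosaposin, are such activators. Proximal tubule cells take up large amounts of filtered glycoprotein by endocytosis and hold many lysosomes. In people, loss of single genes of this group causes storage diseases, among them Tay-Sachs disease (HEXA), Fabry disease (GLA), Farber disease (ASAH1) and Pompe disease (GAA), and Fabry disease affects the kidney.

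The libraries held 15528454 to 30004933 reads as implied by the FPKM values, and the recovered genes made up 99.6% of each total. Atg5 itself was not lower in the KO-labelled libraries: it stood at 13.3, 11.5 and 12.7 FPKM in KO-labelled replicates 1 to 3 and at 8.76, 8.95 and 7.94 FPKM in F/F-labelled replicates 1 to 3 (log2 fold change 0.50, SE 0.066, limma adjusted p = 5.5e-04). A level for the whole gene does not show whether an exon is missing, so the labels were not checked by it, and every direction here rests on them. Of 12 markers of the proximal tubule, 5 were high enough to be tested, among them Lrp2, Aqp1, Hnf4a and Ggt1. Cubn, Slc34a1, Slc5a2, Slc5a12, Slc22a6 and Anpep stayed under 1 FPKM in every library, and Slc22a8 was listed at 0 in all 6. Of the 5, 4 were lower and Aqp1 was higher in KO-labelled libraries, and the summed level of the 12 markers was 118.9 to 129.9 FPKM there against 207.2 to 225.2 FPKM in F/F-labelled libraries. In bulk RNA, fewer cells of a type and less RNA per cell cannot be told apart. The summed level of 7 fibroblast and pericyte markers was 0.18 to 0.40 FPKM in KO-labelled and 0.12 to 0.29 FPKM in F/F-labelled libraries, and that of 8 markers of other nephron segments was 0.066 to 0.29 FPKM in KO-labelled and 0.064 to 0.20 FPKM in F/F-labelled libraries, with Aqp2, Calb1 and Foxi1 at 0. The 6 macrophage and leukocyte markers summed to 14.9 to 16.3 FPKM in KO-labelled and 15.6 to 18.4 FPKM in F/F-labelled libraries, with Adgre1 and Itgam at 0. The 5 podocyte markers summed to 27.6 to 31.1 FPKM in KO-labelled and 27.2 to 31.3 FPKM in F/F-labelled libraries, mostly from Synpo, with Nphs1 near 0. The 5 endothelial markers summed to 5.27 to 6.56 FPKM in KO-labelled and 8.49 to 10.0 FPKM in F/F-labelled libraries, mostly from Kdr, with Pecam1 and Cdh5 near 0. The part of these marker levels in the results was not tested.

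Transcripts of 7 of the 8 lysosomal genes were lower in KO-labelled than in F/F-labelled libraries and none was higher (limma on log2(FPKM + 1), adjusted p under 0.05). Among all 11559 tested genes 17.9% were called lower and 21.3% higher, 39.2% in all, and of those with at least 5 FPKM in 3 libraries 20.4% were called lower. Psap, Hexa, Gaa and Neu1 stood 32.7% to 37.3% lower, Gusb, Asah1 and Gla 16.2% to 19.6% lower, and Glb1 was not called. The median log2 fold change of the 8 genes was -0.43, beside 0.02 over all tested genes. As the genes were chosen with earlier results known, these contrasts are descriptions and no test of the set. For the same 7 genes all 3 KO-labelled values lay below all 3 F/F-labelled values, a pattern that 23.2% of the tested genes showed, while 51.9% had groups apart in either direction. A log2 fold change of -0.5 or below was found for 4 of the 8 genes and for 3.79% of all tested genes. That cut was not among the planned comparisons and falls in the gap between Neu1 (-0.56) and Gusb (-0.30). Its share was not taken among genes of at least 5 FPKM. An exact two-sided permutation test of 3 against 3 libraries cannot go below p = 0.1, which was the value for each of the 7 called genes. The added 1 FPKM makes the fold changes of the less abundant genes come out smaller.

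**Figure D1:**
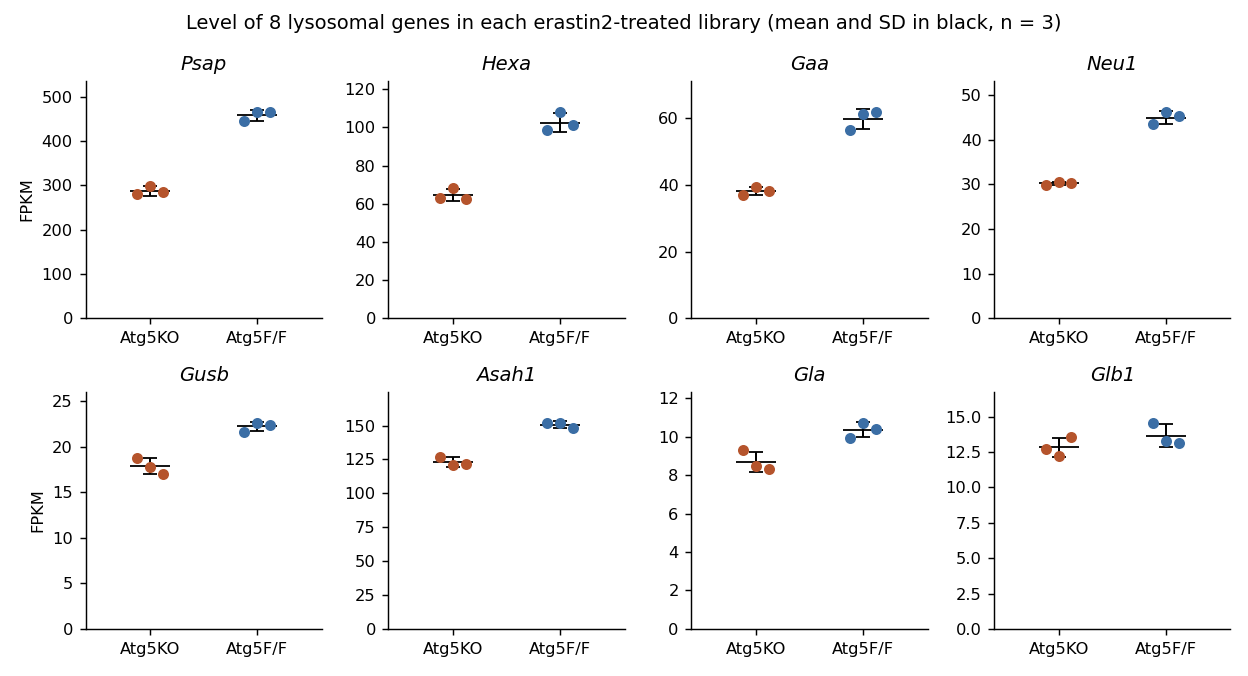
FPKM of each of the 8 genes in the 3 KO-labelled (left, orange) and 3 F/F-labelled (right, blue) libraries, each panel on its own axis from 0, with the group mean and SD in black. The groups are apart in 7 panels and overlap for Glb1.

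Stretches upstream of the annotated start are shown for the members at both ends of this range and for Gaa, because lysosomal genes are known to carry E-boxes near their start, where the TFEB family binds. RefSeq promoters on GRCm38.p6, each 250 bases before to 50 bases after a start, were matched for 7 of the 8 members. Asah1 had no entry. The 120 bases printed end just before the earlier of the RefSeq and GENCODE starts, read 5′ to 3′ on the strand of the gene, and capitals mark CACGTG (the E-box core) and TGAGTCA (an AP-1 motif), searched on both strands. In Glb1 the motifs overlap.
Psap (chr10:60277507-60277626, plus strand): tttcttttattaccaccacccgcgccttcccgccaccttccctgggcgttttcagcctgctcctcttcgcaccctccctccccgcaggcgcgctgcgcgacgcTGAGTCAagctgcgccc
Hexa (chr9:59539420-59539539, plus strand): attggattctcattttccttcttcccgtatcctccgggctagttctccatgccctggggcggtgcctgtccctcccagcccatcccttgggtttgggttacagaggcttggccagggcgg
Gaa (chr11:119267767-119267886, plus strand): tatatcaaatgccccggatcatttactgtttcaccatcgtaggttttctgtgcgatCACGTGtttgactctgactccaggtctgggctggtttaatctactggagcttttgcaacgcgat
Gla (chrX:134601126-134601245, minus strand): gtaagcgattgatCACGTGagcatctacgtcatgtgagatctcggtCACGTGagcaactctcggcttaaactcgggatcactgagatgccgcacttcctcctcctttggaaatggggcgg
Glb1 (chr9:114400956-114401075, plus strand): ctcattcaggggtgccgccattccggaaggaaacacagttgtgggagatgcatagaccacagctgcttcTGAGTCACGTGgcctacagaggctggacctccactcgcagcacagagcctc
In the full promoters CACGTG was found in Gla, Glb1 and Gaa, thus in 3 of 7 members, and in 7.15% of 32851 promoters. The longer palindrome TCACGTGA, which contains it, was in Gla only among the 7 and in 0.974% of all promoters. TGAGTCA was in Psap, Glb1 and Neu1, thus in 3 of 7 members, and in 5.2% of all promoters, and the Neu1 match lies outside such a stretch. The 7 members have 8 promoters, as Psap has 2, and its second holds none of these motifs. Member counts are thus per gene, while the percentages are per promoter. Both Gla E-boxes are in the printed stretch. The stretches of Neu1 and Gusb, which are not printed, hold neither motif. The printed stretches thus carry a motif more often than those of all 7 members. These matches describe the letters of the window and no binding was measured.

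Psap encodes prosaposin, from which saposins A to D are cut (chromosome 10, 60277627 to 60302597 on GRCm38, plus strand). Its FPKM was 279.2, 299.4 and 283.8 in KO-labelled replicates 1 to 3, against 444.2, 465.3 and 465.0 in F/F-labelled replicates 1 to 3. The groups were far apart, with the highest KO-labelled library well below the lowest F/F-labelled one. Psap averaged 287.5 ± 10.6 FPKM in KO-labelled and 458.2 ± 12.1 FPKM in F/F-labelled libraries (SD, n = 3 each), and the log2 fold change was -0.67 (SE 0.047, 95% interval -0.78 to -0.56, limma adjusted p = 1.7e-05). Only 2.14% of the tested genes had a lower fold change. Psap was the most abundant of the 8 genes in every library and rested on 13496 to 36427 reads. It made up 48.4% to 50.2% of the summed FPKM of the 8 genes in KO-labelled libraries and 52.8% to 53.6% in F/F-labelled libraries.

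Hexa encodes the alpha subunit of beta-hexosaminidase A, which removes terminal N-acetylgalactosamine from ganglioside GM2 (chromosome 9, 59539540 to 59565109, plus strand). Hexa stood at 62.8, 68.1 and 62.3 FPKM in KO-labelled replicates 1 to 3 and at 98.4, 108.1 and 101.2 FPKM in F/F-labelled replicates 1 to 3. The groups did not overlap, and replicate 2 was the highest library of each group. Hexa averaged 64.4 ± 3.2 FPKM in KO-labelled and 102.6 ± 5.0 FPKM in F/F-labelled libraries (SD, n = 3 each), a log2 fold change of -0.66 (SE 0.050, 95% interval -0.78 to -0.55, limma adjusted p = 2.7e-05). The opposite strand carries Tmem202, which overlaps the first bases of Hexa and averaged 0.52 FPKM over the 6 libraries.

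Neu1 encodes the lysosomal sialidase, which removes terminal sialic acid from glycoproteins and gangliosides (chromosome 17, 34931253 to 34935953, plus strand). It had 29.9, 30.4 and 30.4 FPKM in KO-labelled replicates 1 to 3, against 43.4, 46.2 and 45.2 FPKM in F/F-labelled replicates 1 to 3. The KO-labelled values were the tightest of any member, with a coefficient of variation of 1.00%, and lay clear of the other group. That spread is below the counting error alone of 2.25% in KO-labelled replicate 2, so the tightness is not read as a result. The log2 fold change was -0.56 (SE 0.037, 95% interval -0.64 to -0.47, limma adjusted p = 1.5e-05), from means of 30.2 ± 0.30 FPKM in KO-labelled and 44.9 ± 1.4 FPKM in F/F-labelled libraries.

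Glb1 encodes acid beta-galactosidase, which removes terminal galactose from ganglioside GM1 and keratan sulfate (chromosome 9, 114401076 to 114474898, plus strand). The KO-labelled libraries had 12.7, 12.2 and 13.5 FPKM in replicates 1 to 3, and the F/F-labelled libraries had 14.6, 13.3 and 13.1 FPKM in replicates 1 to 3. The values overlapped: KO-labelled replicate 3 was above F/F-labelled replicates 2 and 3. Glb1 averaged 12.8 ± 0.66 FPKM in KO-labelled and 13.6 ± 0.80 FPKM in F/F-labelled libraries (SD, n = 3 each), and the log2 fold change was -0.08 with a 95% interval of -0.21 to 0.05 (limma adjusted p = 0.28). A decrease as large as that of Neu1 is outside this interval. An exact two-sided permutation test gave p = 0.3. Tmppe lies on the same strand within Glb1, and how reads over their common bases were counted is not known. Tmppe stood at 5.23 ± 0.14 FPKM in KO-labelled and 4.53 ± 0.47 FPKM in F/F-labelled libraries (log2 fold change 0.17, limma adjusted p = 0.091), and its part in the Glb1 value was not tested.

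Gla encodes alpha-galactosidase A, which removes terminal galactose from globotriaosylceramide (chromosome X, 134588149 to 134601125, minus strand). It was the least abundant of the 8 genes, at 9.28, 8.46 and 8.30 FPKM in KO-labelled replicates 1 to 3 and 9.95, 10.7 and 10.4 FPKM in F/F-labelled replicates 1 to 3. The groups did not overlap, but KO-labelled replicate 1 came within 1 FPKM of F/F-labelled replicate 1. The log2 fold change was -0.23 (SE 0.056, 95% interval -0.36 to -0.10, limma adjusted p = 0.012), the smallest of the 7 called. The values rested on 434 to 905 reads, whose counting error alone reaches 4.8% in KO-labelled replicate 2, about the spread between replicates of 6.06% in KO-labelled and 3.77% in F/F-labelled libraries.

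Asah1 encodes acid ceramidase, the enzyme of the last step (chromosome 8, 41340197 to 41374773, minus strand). Its FPKM was 127.1, 120.8 and 121.5 in KO-labelled replicates 1 to 3, against 152.1, 151.9 and 147.9 in F/F-labelled replicates 1 to 3. The groups were clearly apart although the change was small, since each group was tight. Asah1 averaged 123.1 ± 3.4 FPKM in KO-labelled and 150.6 ± 2.4 FPKM in F/F-labelled libraries (SD, n = 3 each), a log2 fold change of -0.29 (SE 0.038, 95% interval -0.37 to -0.20, limma adjusted p = 5.0e-04).

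Gusb encodes beta-glucuronidase, which acts on glycosaminoglycans (chromosome 5, 129989011 to 130003049, minus strand). Gusb stood at 18.8, 17.8 and 17.0 FPKM in KO-labelled replicates 1 to 3 and at 21.6, 22.6 and 22.4 FPKM in F/F-labelled replicates 1 to 3. Again no KO-labelled value reached the F/F-labelled range. Gusb averaged 17.9 ± 0.90 FPKM in KO-labelled and 22.2 ± 0.53 FPKM in F/F-labelled libraries (SD, n = 3 each), a log2 fold change of -0.30 (SE 0.047, 95% interval -0.41 to -0.19, limma adjusted p = 0.0013).

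Gaa encodes acid alpha-glucosidase, which degrades glycogen inside the lysosome (chromosome 11, 119267887 to 119285454, plus strand). Gaa had 36.9, 39.5 and 38.3 FPKM in KO-labelled replicates 1 to 3, against 56.4, 61.2 and 61.9 FPKM in F/F-labelled replicates 1 to 3. F/F-labelled replicate 1 was the lowest of its group and still lay far above every KO-labelled library. Gaa averaged 38.2 ± 1.3 FPKM in KO-labelled and 59.9 ± 3.0 FPKM in F/F-labelled libraries (SD, n = 3 each), and the log2 fold change was -0.63 (SE 0.046, 95% interval -0.74 to -0.53, limma adjusted p = 2.3e-05).

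By size the 8 changes fell into levels that their intervals separate in part. The intervals of Psap, Hexa, Gaa and Neu1 ended at -0.47 or lower, and those of Gusb, Asah1 and Gla began at -0.41 or higher. Within each of these sets the intervals overlapped, and that of Glb1 overlapped those of Gusb, Asah1 and Gla. A lower fold change than that of Hexa, Gaa and Neu1 was found for 2.26%, 2.48% and 3.15% of the tested genes, against 8.84% for Gusb, 9.45% for Asah1, 12.8% for Gla and 30.5% for Glb1. The authors' deposited table gave the same order and the same call for each gene, with log2 fold changes of -0.70 for Psap and Hexa, -0.68 for Gaa, -0.60 for Neu1, -0.34 for Gusb, -0.32 for Asah1, -0.28 for Gla and -0.12 for Glb1. The FDR of Glb1 in the authors' deposited table was 0.239, and that of Gla was 0.00107.

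**Figure D2:**
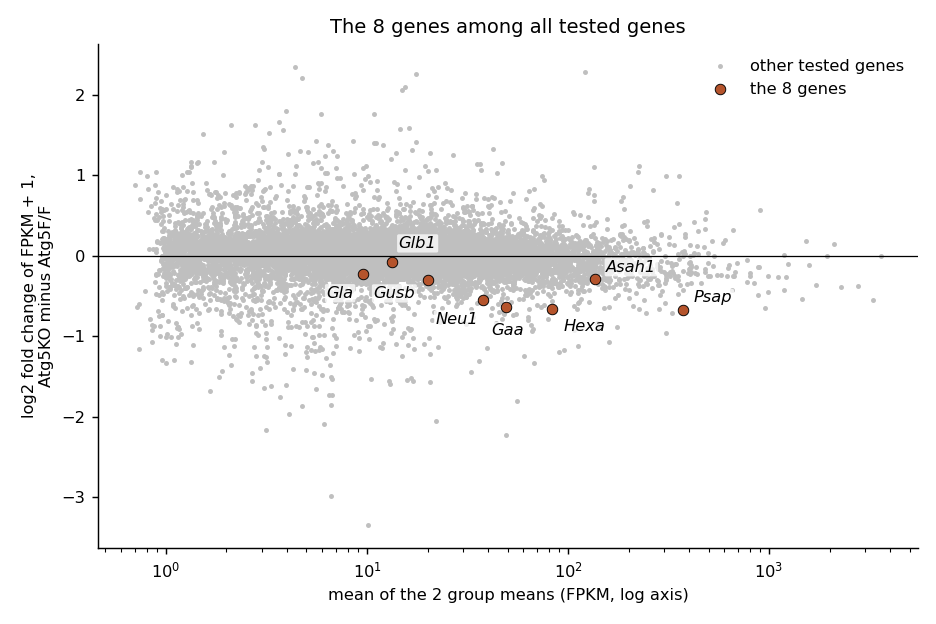
Log2 fold change of FPKM + 1 (KO-labelled minus F/F-labelled) against the mean of both group means in FPKM on a log axis, for all tested genes (grey) and the 8 genes (orange, named). All 8 points lie below 0, with Glb1 at -0.08 nearest to it and Psap at -0.67 farthest.

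The order of abundance did not differ between any of the 6 libraries: Psap was highest, followed by Asah1, Hexa, Gaa, Neu1, Gusb, Glb1 and Gla. FPKM is scaled to gene length, so these levels can be compared between genes. For Glb1 the overlap with Tmppe is a limit to that. Neighbours in that order were apart beyond their spread in both groups. The summed FPKM of the 8 genes was 576.6, 596.7 and 575.0 in KO-labelled replicates 1 to 3, against 840.6, 879.4 and 867.0 in F/F-labelled replicates 1 to 3. The genes whose log2 values followed a member most closely over the 6 libraries, out of 8898 with a mean of at least 5 FPKM, were P4hb for Hexa (Pearson r = 0.9996), Atad3a for Psap (0.9993), Eif3c for Gaa (0.9996), Sema4a for Neu1 (0.9999), Dph1 for Asah1 (0.9984), Akt1s1 for Gusb (0.9990), Pop7 for Gla (0.9970) and Nrip1 for Glb1 (0.9734). These values describe 6 points that share the same genotype contrast, library totals and depth.

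Neu1, Glb1 and Ctsa encode proteins that form a complex in the lysosome, in which cathepsin A (Ctsa) protects the other members. The Neu1 to Glb1 ratio averaged 2.36 ± 0.12 in KO-labelled and 3.3 ± 0.28 in F/F-labelled libraries (SD, n = 3 each). The Neu1 to Ctsa ratio was closer between the groups, at 0.581, 0.564 and 0.600 in KO-labelled replicates 1 to 3 and at 0.612, 0.612 and 0.613 in F/F-labelled replicates 1 to 3. The F/F-labelled ratios (SD 3.6e-04) rested on 2760 to 5013 Neu1 reads. They were tighter than counting error alone would make them, so their closeness is not read as a result. Each of these 2 ratios gave an exact two-sided permutation p of 0.1, the smallest possible, and an adjusted value of 0.1 over the 2. They were chosen for known protein partners after the fold changes had been seen.

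**Figure D3:**
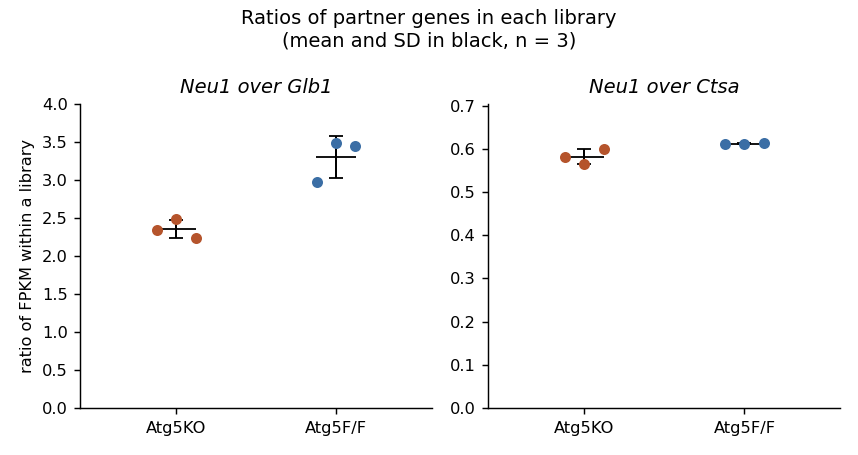
Ratio of FPKM of partner genes within each KO-labelled (left, orange) and F/F-labelled (right, blue) library, with the mean and SD in black and axes from 0. Neu1 over Glb1 is lower in all 3 KO-labelled libraries, and Neu1 over Ctsa lies between 0.564 and 0.600 there against 0.612 to 0.613.

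Among the other 8 genes of lysosomal glycosphingolipid degradation, 3 were lower and none higher, 5 missed the threshold, and the median log2 fold change was -0.13. Ctsa was lower at 52.0 ± 1.7 FPKM in KO-labelled against 73.3 ± 2.3 FPKM in F/F-labelled libraries (log2 fold change -0.49, SE 0.041, limma adjusted p = 4.5e-05). Galc, the galactosylceramidase that saposin A assists, was at 21.3 ± 0.88 FPKM in KO-labelled and 27.4 ± 0.50 FPKM in F/F-labelled libraries (-0.35, SE 0.042). Without KO-labelled replicate 1, 1 gene of this list was called higher. The sphingomyelinase gene Smpd1 (-0.07), the sulfatase gene Arsa (-0.13), the GM2 activator gene Gm2a (-0.13) and the amidase gene Naaa (0.10) were not called. These 4 were named after their values had been seen.

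Of the 12 other lysosomal glycosidases, 6 were lower and 1 higher, and 5 missed the threshold, for a median of -0.21. Lower ones included Manba, the beta-mannosidase, at 17.5 ± 0.30 FPKM in KO-labelled against 25.5 ± 0.73 FPKM in F/F-labelled libraries (log2 fold change -0.52, SE 0.040), and Man2b2, an alpha-mannosidase (-0.36, SE 0.090). Hyal1, a lysosomal hyaluronidase, went the other way. It stood at 26.2, 27.3 and 28.4 FPKM in KO-labelled replicates 1 to 3 and at 14.2, 15.6 and 14.4 FPKM in F/F-labelled replicates 1 to 3. All KO-labelled values were far above the other group (log2 fold change 0.85, SE 0.050, limma adjusted p = 7.3e-06). Among 10 sulfatases and helpers of glycosaminoglycan breakdown 5 were lower and 1 was higher, with a median of -0.12. Galns (-0.47) and Arsg (-0.35, a gene near 2 FPKM), which encode sulfatases, were lower, and the iduronate sulfatase gene Ids was higher at 15.6 ± 1.1 FPKM in KO-labelled against 11.9 ± 0.17 FPKM in F/F-labelled libraries (0.36, SE 0.054). The call of Arsg was lost without F/F-labelled replicate 3 (adjusted p = 0.052).

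**Figure D4:**
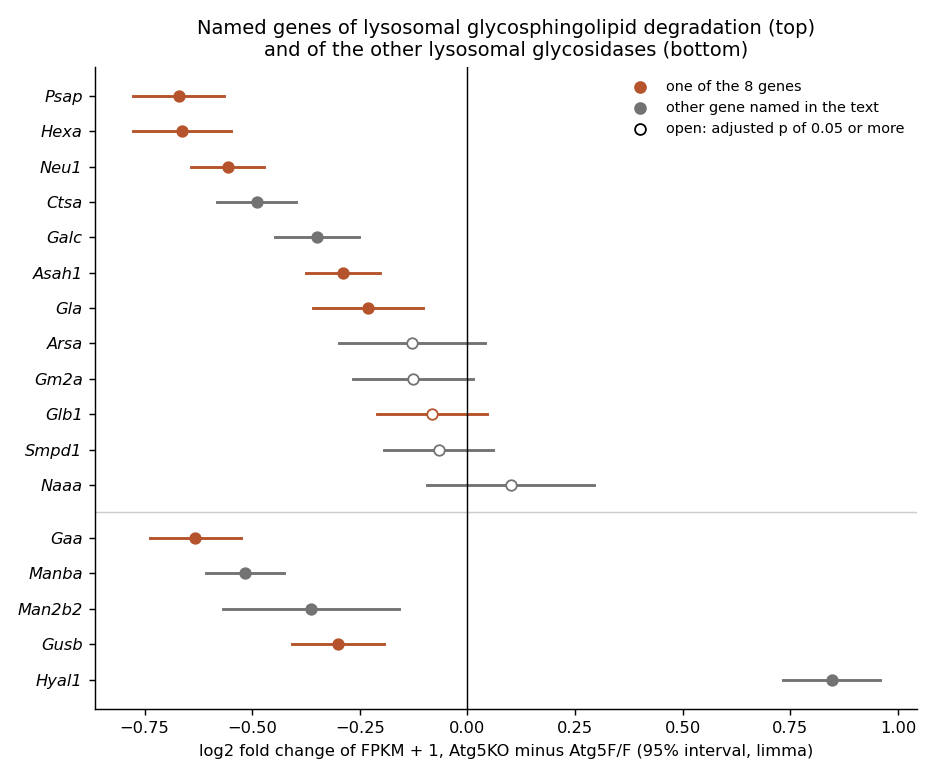
Log2 fold change of FPKM + 1 (KO-labelled minus F/F-labelled) with its 95% interval from limma for those genes of lysosomal glycosphingolipid degradation (top) and of the other lysosomal glycosidases (bottom) that the text names, the 8 genes in orange and open circles for genes not called. Hyal1 at 0.85 lies apart on the right, and Psap at -0.67 is the farthest on the left.

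Genes that bring hydrolases to the lysosome went both ways: of 7 tested, 3 were higher and 2 lower, with a median of -0.05. Igf2r, the large mannose 6-phosphate receptor, was lower at 45.0 ± 0.85 FPKM in KO-labelled against 61.1 ± 0.87 FPKM in F/F-labelled libraries (log2 fold change -0.43, SE 0.035), as was Gnptg (-0.29), the gamma subunit of the enzyme that starts the mannose 6-phosphate tag. Gnptab, which encodes the alpha and beta subunits of that enzyme, was higher (0.25), and so was the sorting receptor gene Sort1 (0.23). Scarb2 was higher too (0.15) but kept its call in only 8 of 16 alternatives. The count of higher genes was 2 without KO-labelled replicate 2 or 3, and without F/F-labelled replicate 2 or 3.

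Among 12 tested genes of ceramide synthesis 6 were higher and 1 was lower, with a median of 0.16. The largest increase was that of Cers6, a ceramide synthase, at 15.5 ± 0.61 FPKM in KO-labelled against 9.97 ± 0.18 FPKM in F/F-labelled libraries (log2 fold change 0.59, SE 0.046, limma adjusted p = 3.4e-05), followed among the called genes by Kdsr (0.26), Cers5 (0.22) and Col4a3bp, which encodes the ceramide transfer protein (0.20). The count of higher genes was 3 without KO-labelled replicate 1 or F/F-labelled replicate 2, and 2 genes were called lower without KO-labelled replicate 1. The call of Col4a3bp was lost in 4 of 16 alternatives (adjusted p up to 0.078). The remaining higher genes, Sptlc1 (0.17) and Ormdl3 (0.15), kept their call in only 11 of 16 each. The lower gene was Sptlc2 (-0.16), called in all 16. Cers2, the most abundant gene of the list, was not called. It stood at 119.7 ± 4.3 FPKM in KO-labelled against 128.7 ± 2.5 FPKM in F/F-labelled libraries (-0.10, limma adjusted p = 0.069). Not all genes of the list encode enzymes, so its counts are not those of synthesis alone. Transcript counts do not show the rate of ceramide synthesis, which was not measured.

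Genes that build glycosphingolipids and sphingomyelin from ceramide had 4 of 12 higher and 3 lower, with a median of -0.01. The galactosylceramide synthase gene Ugt8a was at 2.95 ± 0.11 FPKM in KO-labelled and 1.36 ± 0.28 FPKM in F/F-labelled libraries (0.75, SE 0.099) and the sulfotransferase gene Gal3st1, which turns that lipid into sulfatide, at 2.79 ± 0.26 FPKM in KO-labelled and 1.59 ± 0.22 FPKM in F/F-labelled libraries (0.55, SE 0.091). B4galt6 (-0.31) and St3gal2 (-0.31), a galactosyltransferase and a sialyltransferase, were lower. Sphingolipid breakdown outside the classical lysosomal path had 3 of 12 higher and 3 lower, with a median of 0.05. The largest change in that list was in Smpdl3a, at 7.87 ± 0.91 FPKM in KO-labelled against 14.5 ± 1.1 FPKM in F/F-labelled libraries (-0.80, SE 0.083). Smpdl3a encodes a phosphodiesterase and was listed for its likeness to acid sphingomyelinase. Whether it acts on sphingolipids was not tested, and the 3 lower genes include it. The sphingosine phosphate phosphatase gene Sgpp1 was lower (-0.32), and the sialidase gene Neu3 (0.31) and the neutral sphingomyelinase gene Smpd2 (0.26) were higher. Without KO-labelled replicate 1, KO-labelled replicate 2, F/F-labelled replicate 1 or F/F-labelled replicate 3 only 1 gene of that list was called higher, and the call of Smpd2 was among those lost (adjusted p up to 0.071).

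Beside Gaa, genes of cytosolic glycogen metabolism had 4 of 13 higher and 2 lower, with a median of -0.01. Gbe1, the branching enzyme, was lower at 15.1 ± 0.27 FPKM in KO-labelled against 21.5 ± 0.72 FPKM in F/F-labelled libraries (log2 fold change -0.49, SE 0.042). Stbd1, which encodes a protein that tethers glycogen to membranes (0.26), and the phosphorylase kinase subunit gene Phkb (0.19) were higher. The call of Stbd1 was lost in 5 of 16 alternatives (adjusted p up to 0.082) and that of Phkb in 3 of 16 (adjusted p up to 0.068). The count of 4 higher genes fell whichever library was left out. It was 1 without F/F-labelled replicate 1 or F/F-labelled replicate 3, and 2 without F/F-labelled replicate 2 or any 1 of the KO-labelled replicates. Over all tested genes, too, fewer were called higher with any 1 library left out. Over the 8 lists and apart from the 8 genes, 25 of 86 tested genes were lower and 22 higher, and the count of higher genes was 14 without F/F-labelled replicate 3. The shares to set beside each list are those of all tested genes, 17.9% lower and 21.3% higher.

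**Figure D5:**
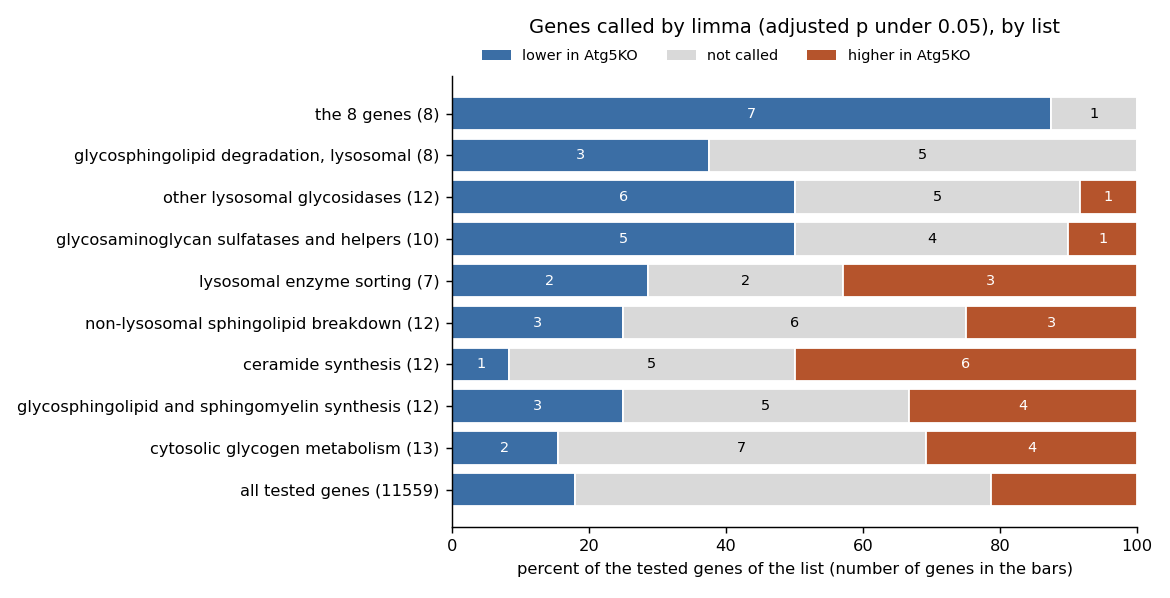
Percent of tested genes called lower (blue), not called (grey) or called higher (orange) in KO-labelled libraries for the 8 genes, each related list without them, and all tested genes, with numbers of genes in the bars. Of the 8 genes 7 were lower, and ceramide synthesis had 6 of 12 higher and 1 lower.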

How the data were processed

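Messenger RNA of 6 samples (3 per label) was sequenced from a stranded mRNA library kit, per the labels' protocols. The submitters' processing notes name, with no order or role, HISAT2 2.1.0, Trimmomatic 0.35, edgeR, bcl2fastq and featureCounts 1.4.6, and the builds GRCm38 and mm10. Nothing in the sources used here gives the annotation, the strand setting or how multi-mapping reads were counted. The authors deposited FPKM per library with a log2 fold change, a p-value column, an FDR and a ranking score of their own. Although the header of that p-value column in the deposited table says adjusted, a Benjamini-Hochberg adjustment of it met the FDR column within 4.7e-07, so it was taken as unadjusted.

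Genes at or above 1 FPKM in 3 libraries or more were tested with limma 3.58.1 in R 4.3.3 on log2(FPKM + 1), with a variance trend, KO-labelled minus F/F-labelled, and Benjamini-Hochberg adjustment over 11559 genes. Calls are at adjusted p under 0.05. Whole reads and gene lengths were recovered from the FPKM steps for 100% of the tested genes (tolerance 0.001 reads) and used for depth, for voom and for a length correction. The test and the read recovery were checked on simulated data. The members and lists were chosen with earlier results of these data known. Beside the 8 members, the text names from each list up to 4 called genes with the largest absolute change, plus genes named for a limit or as partners; some genes that this rule picks are not reported here. Coordinates are from GENCODE vM21 (GRCm38). Promoters are from RefSeq. Python 3.11.15 read the tables.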

Additional observations from a re-analysis of the deposited data

How the results depend on the processing

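Over 16 alternatives each of the 8 genes kept its direction and its side of the threshold. In many of them the direction was fixed in advance. The replicate block, the other filters and the eBayes choices leave the fold change unchanged and can move only the adjusted p. For the 7 called genes, whose groups do not overlap, leaving out 1 library cannot reverse the direction. The fold changes ran from -0.70 to -0.60 for Psap, -0.70 to -0.62 for Hexa, -0.67 to -0.61 for Gaa, -0.60 to -0.54 for Neu1, -0.34 to -0.27 for Gusb, -0.31 to -0.21 for Asah1, -0.27 to -0.20 for Gla and -0.12 to -0.04 for Glb1. Gla, with the fewest reads, had the highest adjusted p of the 7 called genes, 0.042. Leaving out 1 library gave 1781 to 2148 higher and 1431 to 1941 lower genes over the whole table, against 2457 and 2073 with all 6, and 14 to 20 higher genes over the 8 lists against 22. The balance over the whole table turned with median-ratio scaling (2170 higher, 2345 lower) and with the length trend removed (2189 higher, 2241 lower). The alternatives comprised leaving out each library, a replicate block, voom on recovered reads, removing each library's trend on gene length, other scalings (quantile, median ratio), other filters (5 FPKM, none), another pseudocount (0.1), and eBayes without a trend or made robust. Replicate numbers gave no clear pairing of the libraries. Correlations of deviations were 0.163, 0.075 and -0.023 for numbers 1 to 3, against -0.131 to 0.047 between unlike numbers. With 3 libraries per group this check cannot tell whether same-numbered libraries shared a batch. With the replicate block, 2531 genes were higher and 2137 lower, and 7 of the 8 genes were lower, with an adjusted p of 0.024 for Gla.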
